A study of Mus musculus with 6 samples.

Results

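TRIM proteins are a large family of ubiquitin ligases, and the genes described here are all genes of the array whose single platform symbol is Trim followed by a number. Of the 19938 genes tested, 59 met that rule, each with 1 probe set of its own. The arrays compared primary mouse hepatocytes transfected with siRNA against RetSat, the enzyme retinol saturase (siRetSat, n = 3), with hepatocytes given a control siRNA (siControl, n = 3). By the labels, all cells came from wild-type male C57BL/6J mice, here 1 animal aged 10 weeks, were purified on Percoll, and received 1 nmol of siRNA with 4 µl of Lipofectamine per well overnight in culture at 25 mM glucose, with RNA taken 48 h after the next medium change. The labels name Dharmacon as the siRNA supplier, whereas the methods name Eurogentec and younger mice, and the methods describe independent transfections, so the p-values measure the spread between transfections and not between animals. All siRetSat samples received the same siRNA treatment, and what that siRNA does besides silencing RetSat cannot be told apart here.

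A typical TRIM protein carries a RING domain, which brings an E2 enzyme loaded with ubiquitin to a target, then B-box zinc fingers and a coiled coil through which the proteins pair, and last a domain that picks the target. That last domain defines the classes of the family, and the largest class carries a SPRY domain. Many members act in antiviral defence by marking sensors and adaptors of foreign RNA or DNA with ubiquitin or by seizing virus particles, and the transcripts of several are known to be induced by interferon in liver and in other tissues.

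The promoters of the TRIM genes were searched for the DNA element through which type I interferon acts, and the stretches that hold it are shown because several belong to the genes described below. The element searched was GAAANNGAAA, the core of the interferon-stimulated response element, on both strands of the RefSeq windows of build GRCm38.p6 that run from 250 bases before to 50 bases after each start. A window was found for 46 of the 59 members, and 8 of them (17.4%) held the element in at least 1 window, against 1079 of all 27025 genes (3.99%) and 1131 of all 32851 windows (3.44%). The 8 were Trim12a, Trim12c, Trim2, Trim21, Trim26, Trim30a, Trim30d and Trim34a. A stretch of 30 bases around the element is given for 7 of them in the direction of transcription, with the bases of the element in capitals, which read as its reverse complement in all but Trim21. Positions count from 1 at the start of transcription, and each stretch lies on the strand shown.
Trim30a, chr7:104465210-104465239 (-): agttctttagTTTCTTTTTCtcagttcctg
Trim30d, chr7:104507871-104507900 (-): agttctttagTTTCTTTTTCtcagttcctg
Trim12a, chr7:104315466-104315495 (-): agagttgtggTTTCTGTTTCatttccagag
Trim12c, chr7:104353359-104353388 (-): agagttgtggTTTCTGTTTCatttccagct
Trim34a, chr7:104244457-104244486 (+): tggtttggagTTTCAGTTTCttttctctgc
Trim21, chr7:102565447-102565476 (-): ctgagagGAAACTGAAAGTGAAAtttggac
Trim26, chr17:36836979-36837008 (+): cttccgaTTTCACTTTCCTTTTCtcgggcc

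In Trim30a and Trim30d the shown stretches were identical base for base, with the element at -36 to -27 in Trim30a and at -41 to -32 in Trim30d, and another start of Trim30a held it at 3 to 12. In Trim12a and Trim12c the stretches differed only at their 3′ ends, and the element lay at 11 to 20 in Trim12a and at -29 to -20 in Trim12c. Trim21, at 14 to 29, and Trim26, at -160 to -145, each held 2 overlapping matches. The element of Trim34a lay at 11 to 20, and Trim2 held it in the window of 1 of its starts. The likeness of the Trim30 pair went beyond the element: the 100 bases before their starts, printed next with the element in capitals, aligned with 94 identical bases in 105 columns (89.5%).
Trim30a, chr7:104465194-104465293 (-): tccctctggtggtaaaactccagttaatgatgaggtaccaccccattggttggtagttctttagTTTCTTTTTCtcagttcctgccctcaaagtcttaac
Trim30d, chr7:104507850-104507949 (-): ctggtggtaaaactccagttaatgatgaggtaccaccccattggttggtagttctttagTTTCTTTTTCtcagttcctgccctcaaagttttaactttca

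A gene was taken as expressed where its siControl mean exceeded 4.33, a normalized log2 intensity that lies at the 40th percentile of gene means. By this measure 39 of the 59 members counted as expressed, and 20 lay at or under the level. Of all 19938 genes, 11875 lay over it, a share that the choice of percentile largely sets. Of 6 muscle markers 3 passed it too, so a value over the level does not by itself show expression in hepatocytes. Levels compared between probe sets depend on their probes, so the order of members by brightness is a description of the array. The brightest in siControl were Trim28, Trim12a, Trim30a and Trim44, followed by Trim25 and Trim41 with the same mean of 8.11. Trim28, the corepressor that silences transposons together with KRAB zinc finger proteins, had 9.37, 9.28 and 9.37 in siRetSat and 9.62, 9.40 and 9.38 in siControl. Just inside the level were Trim50, with means of 4.25 in siRetSat and 4.37 in siControl, and Trim6, with 4.53 in siRetSat and 4.43 in siControl. Just outside were Trim58, with 4.23 in siRetSat and 4.26 in siControl, and Trim29, with 4.21 in siRetSat and 4.25 in siControl. Trim50 was the only member on different sides of the level in the 2 groups, and its values overlapped.

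The labels were first checked on the silenced gene. Retsat had 4.62, 4.83 and 4.81 in siRetSat and 6.80, 7.04 and 7.01 in siControl, which left 21.8% of the control signal (log2 fold change -2.20, standard error 0.105, adjusted p = 0.000112 from limma). Over all probe sets, the 6 arrays correlated at 0.984 to 0.995, and array medians lay between 4.29 and 4.50. All 8 hepatocyte markers were expressed, with summed linear levels of 23541 to 24932 in siRetSat and 24605 to 26271 in siControl. In cultures measured as a whole, fewer cells of a type and less RNA per cell cannot be told apart.

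With RetSat silenced, 5 TRIM genes were higher and none was lower: Trim30a by 3.32-fold, Trim30d by 2.14-fold, Trim12a by 1.54-fold, Trim35 by 1.41-fold and Trim25 by 1.35-fold. All 5 belong to the SPRY class and were expressed in siControl. These are 8.47% of the 59 members at an adjusted p under 0.05 from limma, where 1.91% of all genes tested were higher and 1.66% lower. Among expressed genes the share was 12.8% of 39 members, against 2.91% higher and 2.77% lower of all 11875 expressed genes. The 54 other members did not pass in either direction, and Trim41 alone was lower at an unadjusted p under 0.05. By the cutoffs of the methods, an unadjusted P under 0.05 with a log2 fold change of at least 0.32 either way, applied here to limma's p, 10 members (16.9%) were higher and 1 (1.69%) was lower, against 4.47% of all genes higher and 4.58% lower. The counts of members were 10 and 1 with the p of the methods' t-test too. All siRetSat values lay above all siControl values in 12 members (20.3%) and below them in 3, where 9.33% of all genes lay wholly above and 10.1% wholly below. The median log2 fold change of the 59 was 0.06 (range -0.38 to 1.73), beside 0.0033 for all genes. The centre of the family thus lay near that of all genes, and the higher values belonged to few members. The 80 genes named Rnf and a number, RING ligases for the most part, had 4 higher (5%), 2 lower and a median of -0.01.

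**Figure D1:**
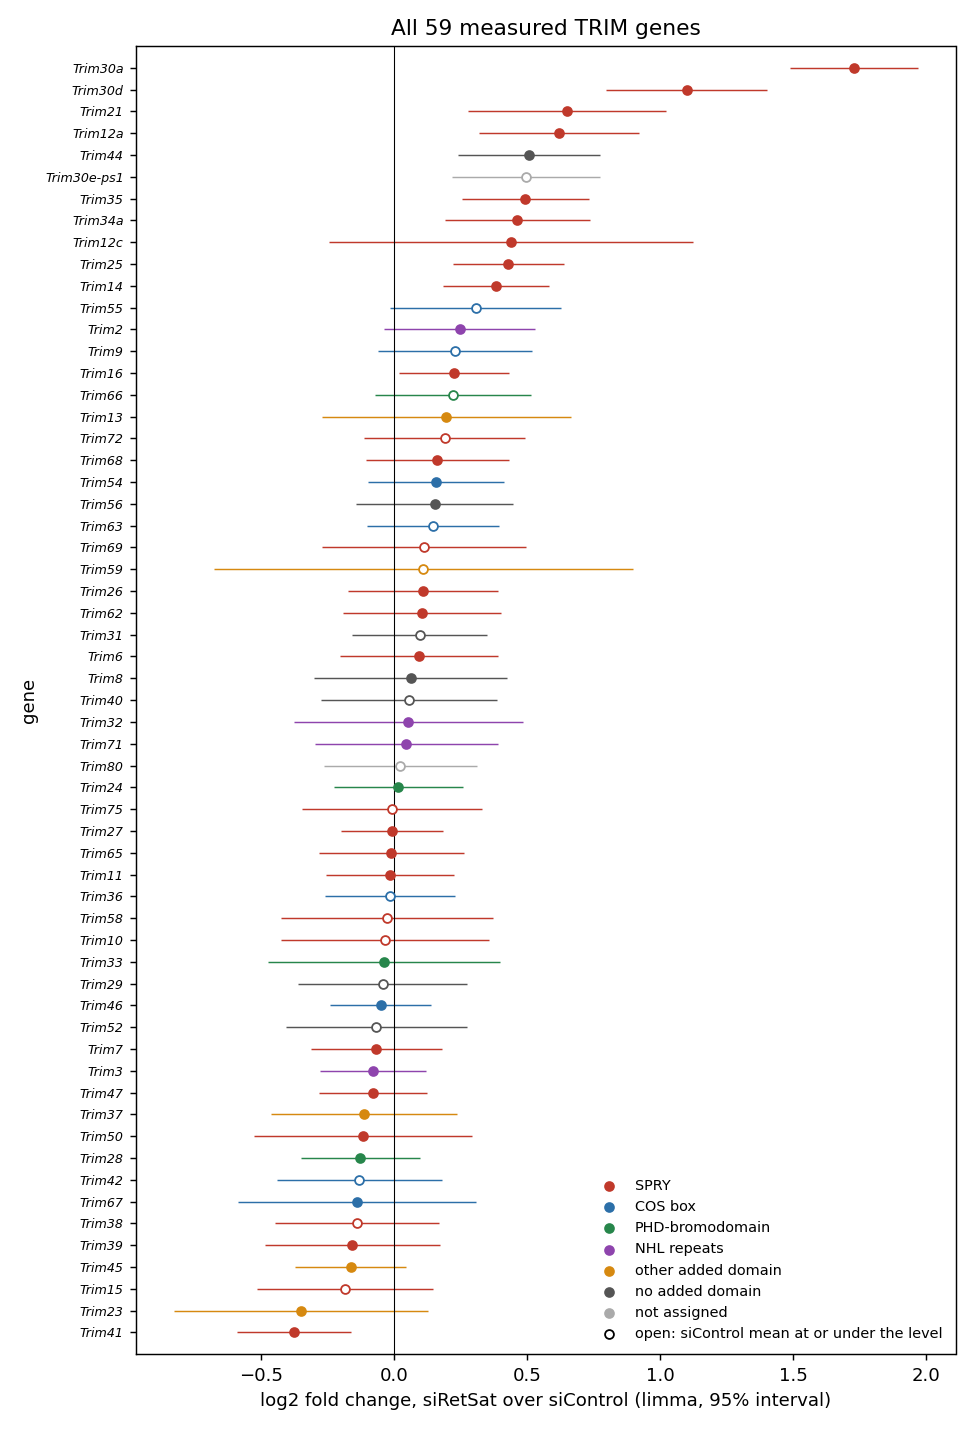
Log2 fold change of siRetSat over siControl with its 95% interval from limma for each of the 59 TRIM genes, ordered by size and coloured by structural class, with open circles for genes at or under the expression level of 4.33 in siControl. Trim30a and Trim30d stand apart at 1.73 and 1.10, and the lowest member, Trim41, lies at -0.38.

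Trim30a had the largest change of the family. This mouse protein is known to restrain Toll-like receptor signalling by promoting the breakdown of the adaptors TAB2 and TAB3. Its log2 intensities were 10.12, 10.02 and 10.31 in siRetSat and 8.34, 8.52 and 8.40 in siControl. The groups lay more than 1 log2 unit apart (log2 fold change 1.73, standard error 0.105, adjusted p = 0.000226 from limma). Trim30d, its close paralog, had 7.64, 7.48 and 7.91 in siRetSat and 6.42, 6.71 and 6.6 in siControl. Here too every siRetSat array exceeded every siControl array, and the log2 fold change was 1.10 (standard error 0.131, adjusted p = 0.00443). Both passed in each of the 6 fits that left out 1 array, but Trim30d did not pass by the methods' t-test (adjusted p = 0.0829), with background subtracted (adjusted p = 0.0536), or with both arrays numbered 2 (adjusted p = 0.097) or 3 (adjusted p = 0.0535) left out. Since the paralogs are alike in sequence, probes of one may also report transcripts of the other.

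Trim12a, a rodent relative of the retrovirus restriction factor TRIM5 of primates, had 8.90, 9.07 and 9.26 in siRetSat and 8.26, 8.48 and 8.63 in siControl. The groups did not overlap, but the gap between the lowest siRetSat and the highest siControl value was smaller than the spread within either group (log2 fold change 0.62, standard error 0.13, adjusted p = 0.0425). Trim35, which has been described as promoting the breakdown of the interferon regulator IRF7, had 8.28, 8.39 and 8.32 in siRetSat and 7.83, 7.68 and 8.0 in siControl. Its siRetSat arrays were nearly alike, and all of them lay above the siControl arrays (log2 fold change 0.49, standard error 0.104, adjusted p = 0.0425).

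Trim25, known for adding ubiquitin chains to the RNA sensor RIG-I and itself a target of the ubiquitin-like protein ISG15, had 8.44, 8.54 and 8.63 in siRetSat. In siControl it had 8.03, 8.13 and 8.16. The groups were separate, and the means were 8.54 ± 0.10 in siRetSat and 8.11 ± 0.07 in siControl (SD, n = 3 each; log2 fold change 0.43, standard error 0.0911, adjusted p = 0.0437). The calls of Trim12a, Trim25 and Trim35 rest on the full set of arrays. Without siRetSat 2, siRetSat 3, or any of the siControl arrays, only Trim30a and Trim30d passed (2 members), and without siRetSat 1 there were 8, from which Trim35 was missing.

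Trim21, the cytosolic receptor that binds antibody-coated viruses and marks them for the proteasome, did not pass the adjusted threshold. It had 7.41, 7.77 and 7.97 in siRetSat and 6.88, 7.03 and 7.29 in siControl. The groups did not overlap, but both were spread widely, with means of 7.72 ± 0.28 in siRetSat and 7.07 ± 0.21 in siControl (SD, n = 3 each). The log2 fold change of 0.65 (95% interval 0.28 to 1.02, standard error 0.162, adjusted p = 0.0786) was thus larger than those of Trim25 and Trim35, with a larger error. In both groups the values rose from array 1 to array 3. With the array number as a block in limma, the adjusted p was 0.00432, but whether the numbers mark a pairing is not known. Without siRetSat 1, the lowest of its siRetSat arrays, the adjusted p was 0.0271 at a log2 fold change of 0.80, and without each of the other arrays it stayed above the threshold. An exact permutation test of 3 against 3 arrays, two-sided, cannot go below p = 0.1, the value that every member without overlap has.

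**Figure D2:**
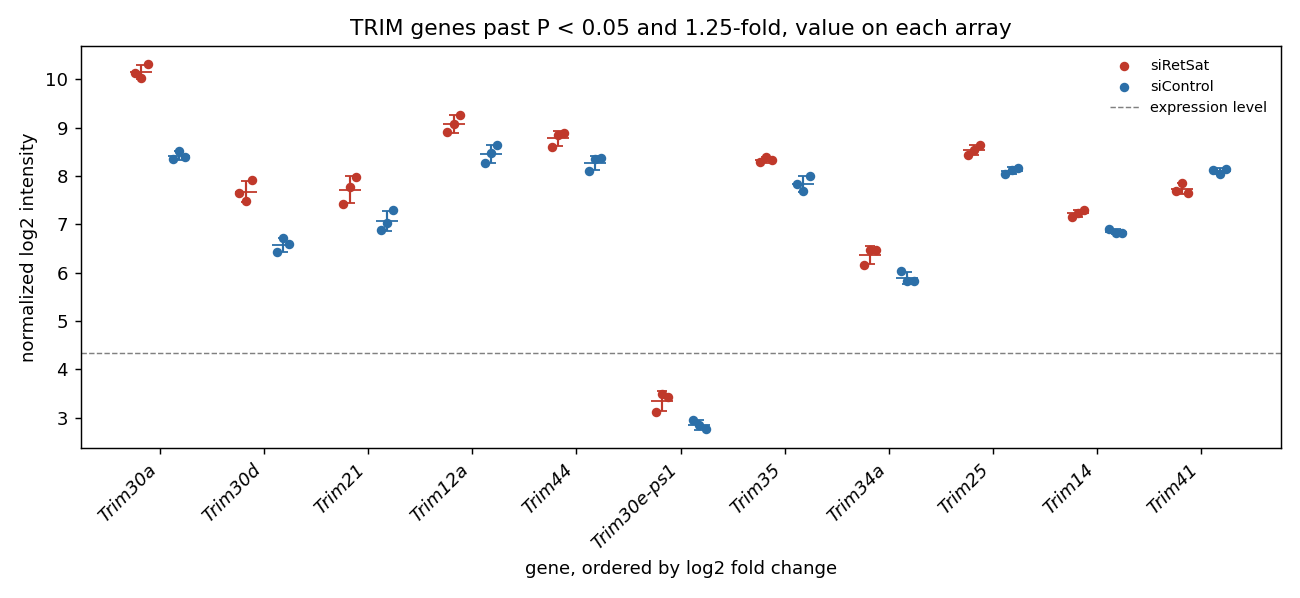
Normalized log2 intensity on each array for the 11 TRIM genes past the P and fold cutoffs of the methods, with siRetSat in red left of siControl in blue, bars for the mean and SD (n = 3 each), and a dashed line at the expression level of 4.33. No gene shown has overlapping groups, only Trim41 is lower in siRetSat, and only Trim30e-ps1 lies under the level.

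Besides Trim21, 5 members met the cutoffs of the methods without passing the adjusted threshold. Trim14, which lacks a RING domain and serves as an adaptor at mitochondria in antiviral signalling (described in human cells), had 7.15, 7.23 and 7.30 in siRetSat and 6.90, 6.82 and 6.81 in siControl (log2 fold change 0.38, adjusted p = 0.0541). Trim44, a B-box protein without a RING domain, had 8.60, 8.85 and 8.88 in siRetSat and 8.10, 8.35 and 8.36 in siControl (log2 fold change 0.51, adjusted p = 0.0574). Both groups of each gene were separate, and array 1 was the lowest of both groups of Trim44. Trim34a, a relative of Trim6 and Trim12a by sequence and position, had 6.15, 6.46 and 6.47 in siRetSat and 6.04, 5.83 and 5.82 in siControl. It came closest to overlap among these genes (log2 fold change 0.46, adjusted p = 0.0862). Trim41, the only member lower in value past those cutoffs, had 7.68, 7.86 and 7.65 in siRetSat and 8.13, 8.04 and 8.15 in siControl. This ligase is known in human cells for binding protein kinase C, and its groups did not overlap (log2 fold change -0.38, adjusted p = 0.077). Trim30e-ps1, a transcribed pseudogene, had 3.11, 3.50 and 3.43 in siRetSat and 2.95, 2.84 and 2.76 in siControl, which is under the level on every array (log2 fold change 0.50, adjusted p = 0.0716).

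**Figure D3:**
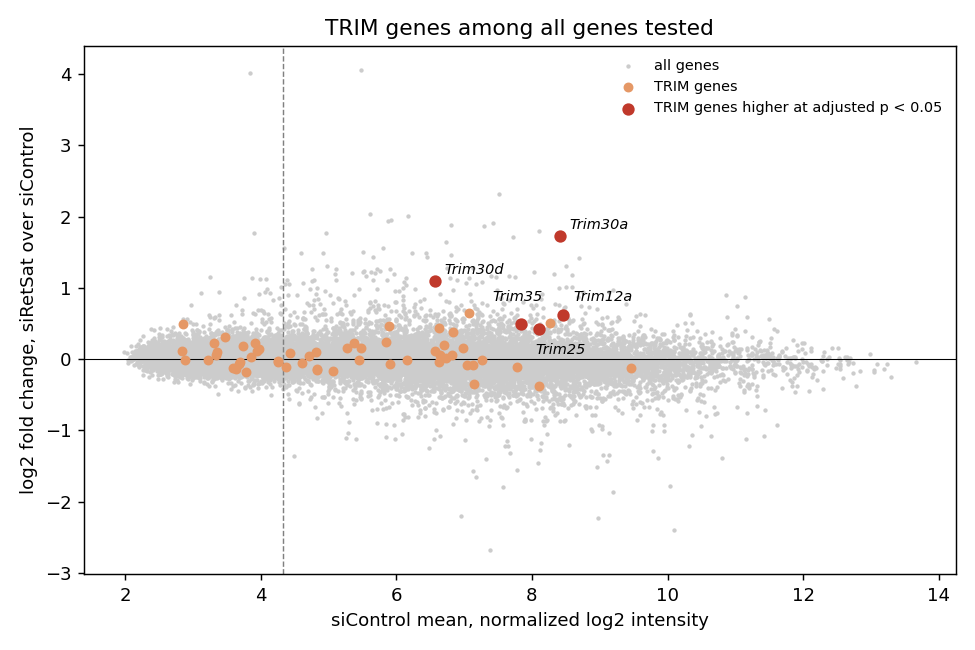
Log2 fold change of siRetSat over siControl against the siControl mean in normalized log2 intensity for all 19938 genes (grey), with the 59 TRIM genes in orange, those higher at an adjusted p under 0.05 in red, and a dashed line at the expression level. Trim30a at 1.73 lies at the upper edge of the cloud for its intensity, while most TRIM genes lie inside it.

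The other members without overlap were Trim16, with means of 5.60 in siRetSat and 5.37 in siControl (adjusted p = 0.293), and the dim Trim66, both higher in value, and Trim28 and Trim45, lower in value, none of which met either threshold.

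By structural class, all 5 calls fell in the 29 SPRY members (17.2%, against 1.91% of all genes), of which 22 were expressed. In 9 of the 29 (31%, against 9.33% of all genes) all siRetSat values lay above the siControl values, and in 1 they lay below. The median log2 fold change of that class was 0.11, and no call was made in the 30 other members, of which Trim44 and Trim30e-ps1 had an unadjusted p under 0.05. The SPRY members without a call included well-known ligases. Trim26, which has been described in regulation of IRF3, had means of 6.68 in siRetSat and 6.57 in siControl, with a 95% interval of the log2 fold change of -0.17 to 0.39. Trim27 had means of 7.25 in siRetSat and 7.26 in siControl (interval -0.20 to 0.19). For Trim27 a change past the fold cutoff of the methods lies outside the interval. Trim12c, with 6.55, 7.16 and 7.49 in siRetSat and 6.22, 6.44 and 7.22 in siControl, had overlapping groups and an interval of -0.24 to 1.12. It was called higher only in the alternative fit with the array number as a block.

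The class with a PHD finger and a bromodomain, nuclear cofactors that read chromatin, had 3 of 4 members expressed and none past the threshold (median -0.01). Trim24, a cofactor of the retinoic acid receptor that restrains liver tumours in mice, had means of 6.74 in siRetSat and 6.73 in siControl (95% interval of the log2 fold change -0.23 to 0.26). For Trim28 the values given earlier made a log2 fold change of -0.13 (interval -0.35 to 0.10, adjusted p = 0.694), with the siRetSat values just below those of siControl. Trim33, which limits TGF-beta signalling, had means of 6.59 in siRetSat and 6.63 in siControl.

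All 4 members with NHL repeats were expressed and none passed (median 0.05). Trim2 had means of 6.10 in siRetSat and 5.85 in siControl (log2 fold change 0.25, adjusted p = 0.44), and Trim32, mutated in a limb-girdle muscular dystrophy in humans, had 6.87 in siRetSat and 6.82 in siControl. Of the 8 members with a COS box, which binds microtubules, 3 were expressed and none passed (median 0.07). That class holds the muscle ligase Trim63, which lay under the level with means of 4.12 in siRetSat and 3.97 in siControl. The 5 members with another added domain had a median of -0.11 and no call. Among them, Trim37, a ligase of peroxisome import, had means of 7.66 in siRetSat and 7.78 in siControl, and Trim23, which carries an ARF GTPase domain, had 6.80 in siRetSat and 7.15 in siControl (log2 fold change -0.35, adjusted p = 0.548). The 7 members with no added domain had no call either. Trim56, known to promote signalling by the DNA sensor adaptor STING, had means of 7.14 in siRetSat and 6.98 in siControl (log2 fold change 0.15, interval -0.14 to 0.45).

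Trim30a and Trim30d, with the largest changes, were neighbours on the chromosome. In the RefSeq order of chromosome 7, 11 TRIM genes follow each other with at most 3 other protein-coding genes between them, a run that was defined after the values were seen and is given with no test. It reads Trim6, Trim34a, Trim5, Trim12a, Trim34b, Trim12c, Trim30b, Trim30c, Trim30a, Trim30d and Trim30e-ps1. Of these, 7 had a probe set of their own, and all 7 had positive fold changes. In the run 3 were called higher (42.9%, against 1.91% of all genes), and 5 lay wholly above siControl (71.4%, against 9.33%). The median log2 fold change of the 7 was 0.50 (range 0.09 to 1.73). The 52 members elsewhere had a median of 0.02 and 2 calls (3.85%), Trim25 and Trim35, and 7 lay wholly above (13.5%). Trim6 at one end, close to the expression level in both groups, had the smallest value of the run. Elsewhere on chromosome 7 lie Trim28, Trim21, Trim68, Trim3, Trim66 and Trim72, none of which passed the adjusted threshold. Their log2 fold changes were -0.13, 0.65, 0.16, -0.08, 0.22 and 0.19 in that order. Trim68 had means of 5.64 in siRetSat and 5.47 in siControl (adjusted p = 0.662). As these neighbours are paralogs, their probe sets are not independent readings.

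**Figure D4:**
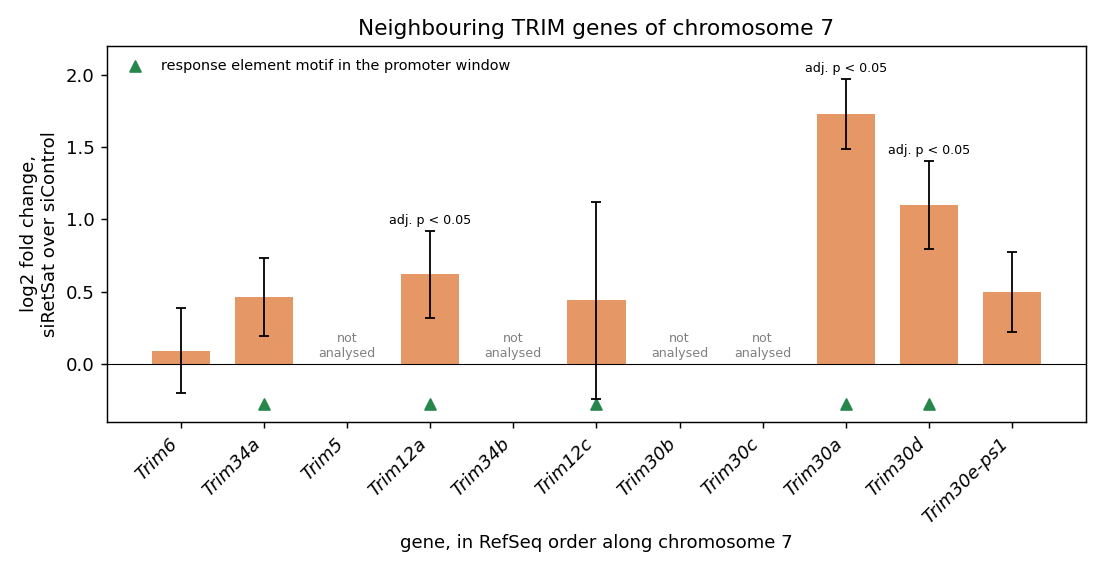
Log2 fold change of siRetSat over siControl with its 95% interval from limma for the 11 neighbouring TRIM genes of chromosome 7 in RefSeq order, with triangles under measured genes whose promoter window held the response element. All 7 bars lie above 0, from 0.09 for Trim6 to 1.73 for Trim30a, and the interval of Trim12c crosses 0.

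Set against the promoter search, the 8 members with GAAANNGAAA all had positive fold changes, with a median of 0.54 (range 0.11 to 1.73), 3 calls and 5 with no overlap between the groups. The 38 members whose windows lacked it had a median of 0.02, with 20 positive, 1 call, Trim25, and 3 with all siRetSat values above. Of all 19938 genes, 1.91% were called higher and 9.33% had all siRetSat values above. Trim35, the remaining call, had no window in the search. Of the 15562 tested genes with a window, 39 of the 605 with the element (6.45%) and 257 of the 14957 without it (1.72%) were called higher. The motif GAAANGAAA, with a spacer shorter by 1 base, stood in windows of 3.7% of all genes and of 7 members (15.2%). It overlapped the longer one in Trim12a, Trim12c and Trim34a. The gamma-activated site TTCNNNGAA stood in windows of 9.55% of all genes and of 5 members (10.9%). None of these 5 was called, where 1.91% of all genes were called higher. Among tested genes with a window, the shorter motif went with 3.88% called higher, against 1.83% without it. For the gamma-activated site the shares were 2.71% with it and 1.82% without it. A match describes letters in a window, not a bound site, and 5 of the 8 members lie in the run of neighbours.

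The pathway on which these ligases act was read from further lists. Beside each list stand the 1.91% of all genes and the 2.91% of expressed genes called higher. Of 17 measured genes of RNA and DNA sensing, 4 were higher (23.5%) and none was lower, with a median log2 fold change of 0.02. Irf7, the inducible interferon regulator, had means of 10.2 in siRetSat and 9.20 in siControl (log2 fold change 0.97, adjusted p = 0.00128), and Ddx58, which encodes RIG-I, the sensor that Trim25 marks, had 9.40 in siRetSat and 8.40 in siControl (1.00, adjusted p = 0.00194). Dhx58 and Ifih1, the other sensors of that kind, had log2 fold changes of 1.07 (adjusted p = 0.00128) and 0.72 (adjusted p = 0.0168). Mavs, the adaptor below the sensors, had means of 7.15 in siRetSat and 7.13 in siControl, and Tab2, a target of Trim30a, had 9.16 in siRetSat and 9.15 in siControl. Rnf135, a SPRY relative that also marks RIG-I, had means of 7.18 in siRetSat and 6.68 in siControl (adjusted p = 0.127).

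In the conjugation of ISG15, 2 of 4 measured genes were higher (50%) and none was lower, with a median of 0.54. Herc6, the ligase of the system in mice, was higher by 2.33-fold (adjusted p = 0.00368), and Uba7, its activating enzyme, by 1.65-fold (adjusted p = 0.00683). Of 17 measured genes for enzymes that activate, carry or extract ubiquitin, none passed, beside 2.91% of expressed genes higher and 2.77% lower. Their median was -0.07. By the cutoffs of the methods applied to limma's p, none was higher and 3 were lower (17.6%). That compares with 4.58% of all genes and 7.5% of expressed genes lower. Of the interferon signal and its receptor, 1 of 10 (10%, median 0.07) was higher, Stat2, by a log2 fold change of 0.43 (adjusted p = 0.041), and Ifnb1 was dim, with means of 3.63 in siRetSat and 3.68 in siControl. Among 9 measured tripartite relatives under other names, of which 1 was higher (11.1%, median 0.0033), Pml, the scaffold of nuclear bodies, had means of 7.88 in siRetSat and 7.17 in siControl (log2 fold change 0.71, adjusted p = 0.00547), while the COS-box genes Mid1 and Mid2 had 0.00 and -0.01. Of 12 genes of the Trim28 silencing complex, 2 were higher (16.7%) and 7 had negative fold changes (median -0.04). Those called were the imprint-guarding zinc finger gene Zfp57 (log2 fold change 0.84, adjusted p = 0.00897) and the chromatin remodeller gene Chd3 (0.54, adjusted p = 0.0226).

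Few markers of other liver cells were called. Of 13 macrophage markers, 3 were expressed, 8 had positive and 5 negative fold changes (median 0.09), and 1 was higher, Cd14 (log2 fold change 0.59, adjusted p = 0.0208). Cd68, by far the brightest of the list, had means of 11.54 in siRetSat and 11.14 in siControl (adjusted p = 0.0563), and the summed linear level of the list was 3336 to 3573 in siRetSat and 2478 to 2759 in siControl. Other defining markers lay under the expression level or close to it: Adgre1 had means of 3.25 in siRetSat and 3.16 in siControl, Csf1r had 3.75 in siRetSat and 3.66 in siControl, and Clec4f had 4.49 in siRetSat and 4.25 in siControl. The 5 negative fold changes ran from -0.12 for Lyz2 to -0.03 for Marco and Ptprc. Of 9 dendritic or lymphoid cell markers none was called, with summed linear levels of 102 to 140 in siRetSat and 102 to 129 in siControl. Of 8 stellate cell markers Acta2, the smooth muscle actin of activated stellate cells, alone was lower, with 7.52, 7.88 and 7.65 in siRetSat and 9.88, 10.24 and 10.14 in siControl (log2 fold change -2.40, adjusted p = 0.000205). Of these 8 markers, 5 had positive and 3 negative fold changes (median 0.10). The summed linear level of that list was 391 to 646 in siRetSat and 1188 to 1421 in siControl. Acta2, by far the brightest of the list in siControl, made up most of the sum there. Of 8 hepatocyte markers Cps1, which feeds ammonia into the urea cycle, alone was lower (log2 fold change -0.82, adjusted p = 0.0291), and none of 7 endothelial or 6 muscle markers was called. The part of these cells in the TRIM values was not tested.

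How far the calls held under other processing is shown by gene. Trim30a passed in all 19 alternative fits, Trim30d in 15 of them, Trim25 in 8, Trim12a in 8 and Trim35 in 6, while Trim21, not called in the reported fit, passed in 6.

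**Figure D5:**
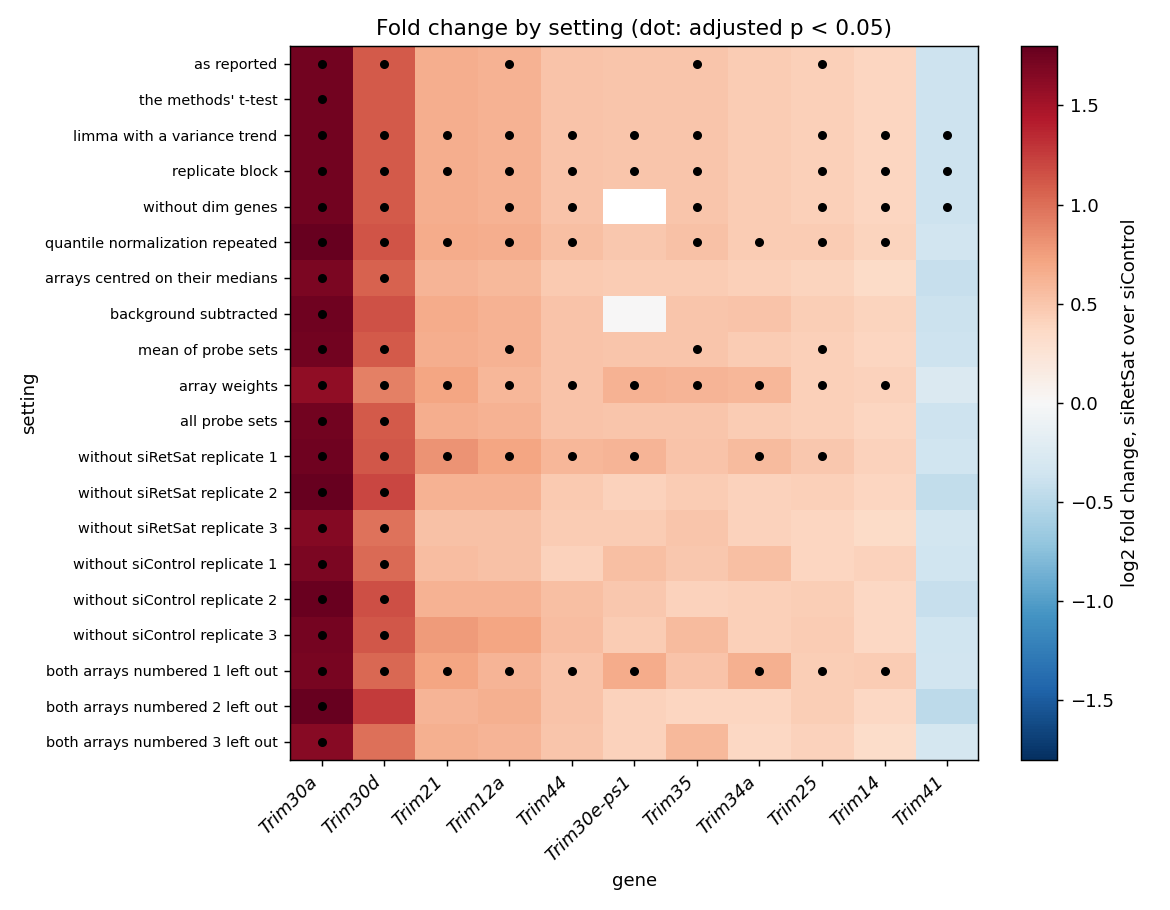
Log2 fold change of siRetSat over siControl (colour) for the 11 TRIM genes past the P and fold cutoffs of the methods, by processing setting, with a dot where the adjusted p was under 0.05 and a blank cell where the gene was not tested. Trim30a carries a dot in every row, whereas the dots of Trim12a, Trim25, Trim35 and Trim21 come and go with the setting.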

How the data were processed

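The authors deposited normalized log2 intensities per probe set of Affymetrix Mouse Gene 1.0 ST arrays, made from 100 ng of RNA per sample and, by the submitters' processing notes, with RMA (background correction, quantile normalization and probe summary) and Partek 6.6. For the probe annotation version and any filter, the authors' sources used here give nothing. Of 35556 probe sets, 21789 had 1 gene symbol in the platform annotation, 1621 several and 12146 none. RefSeq then gave current symbols through the Entrez identifier (21698 matched, 91 not), and the brightest probe set was kept for each of 19938 genes. From these values siRetSat was compared with siControl, without covariates, by limma 3.58.1 in R 4.3.3 p-values being adjusted by Benjamini-Hochberg over the whole gene table and called under 0.05. The fit was also run on simulated data with independent noise on each array. Those data lack the deviations that arrays share here, so the run does not vouch for the calls given. For arrays, their number limits the precision. The TRIM genes, the gene lists, the motifs and the run of neighbours were chosen with earlier results of these data known. Named were Trim21, Trim25, members past either threshold, the 5 brightest, those nearest the expression level, listed genes past the adjusted threshold and Retsat. Trim2, Trim3, Trim6, Trim12c, Trim16, Trim23, Trim24, Trim26, Trim27, Trim32, Trim33, Trim37, Trim45, Trim56, Trim63, Trim66, Trim68, Trim72, Mavs, Tab2, Rnf135, Ifnb1, Mid1, Mid2, Cd68 and other cell markers were named after their values were seen. Promoters came from RefSeq (GRCm38.p6) and were aligned with Biopython 1.88, with tables in Python 3.11.15. Alternatives are given in the closing section.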

Additional observations from a re-analysis of the deposited data

Results flagged for a closer look

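A signal appeared in probe sets that the comparison of TRIM genes did not use, because they carry several symbols. The probe set of Trim5 or Trim12c had 7.73, 8.24 and 8.26 in siRetSat and 7.15, 7.14 and 7.47 in siControl, which differ by 0.82 on the log2 scale (adjusted p = 0.108, limma over all probe sets). That of Trim5, Trim12c or Trim12a had 8.05, 8.49 and 8.63 in siRetSat and 7.41, 7.64 and 7.94 in siControl, which differ by 0.73 (adjusted p = 0.199). In both, every siRetSat value lay above every siControl value, and neither passed the threshold. Which of these neighbouring paralogs the probes report cannot be told apart. The 4 other probe sets that name a TRIM gene among several symbols had overlapping groups, with log2 fold changes of -0.12 (H2aw or Trim17), -0.19 (Gm38525 or Trim30b), -0.04 (Trim61 or Trim60) and 0.09 (Trim43a, Trim43b or Trim43c).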

How the results depend on the processing

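The number of TRIM genes called higher, 5, depended on the processing. It was 1 by the methods' t-test, 9 with a variance trend, 10 with the replicate block, 7 without dim genes, 9 with quantile normalization repeated, 2 with arrays centred on their medians, 1 with background subtracted, 5 with the mean of probe sets, 14 with array weights and 2 with all probe sets. The count over all genes, 380, moved with it, to 100 by the methods' t-test, 535 with a variance trend, 736 with the replicate block, 494 without dim genes, 512 with quantile normalization repeated, 247 with median centring, 211 with background subtracted, 378 with the mean of probe sets, 1457 with array weights and 151 with all probe sets. Leaving out 1 array gave 2 to 8 members (119 to 402 genes), and leaving out both arrays of a number gave 9, 1 and 1 members (437, 10 and 71 genes) for numbers 1, 2 and 3. Members called lower, 0, were 1 with a variance trend or without dim genes and 2 with the replicate block. The members at the cutoffs of the methods, 11 in all, were 17 with array weights and 16 without siRetSat 1. They were 14 with both arrays numbered 1 left out and 10 to 13 in the other fits. Trim21 (0.65) passed with a variance trend (0.65, adjusted p = 0.035), the replicate block (0.65, adjusted p = 0.00432), repeated quantile normalization (0.67), array weights (0.71) and both arrays numbered 1 left out (0.71), and leaving out 1 array gave 0.52 to 0.80. Trim25 (0.43) did not pass by the methods' t-test (0.43, adjusted p = 0.101), with median centring (0.40), with background subtracted (0.44), with all probe sets (0.43) or with both arrays numbered 2 (0.44) or 3 (0.41) left out, and leaving out 1 array gave 0.38 to 0.48. Of the 12 members followed through these fits, which are those past the cutoffs of the methods and Trim28, none turned its direction, but Trim30e-ps1 was at 0.00 with background subtracted. The cause of these shifts was not tested. Same-numbered arrays correlated at 0.547, 0.0398 and 0.541 in their deviations from the group means, and those with different numbers at -0.567 to 0.247. The siRetSat arrays numbered 1 and 3 correlated best with their own number and siRetSat 2 with siControl 3. Deviations within a group cancel out, so these values are not independent and do not settle whether the numbers mark a pairing. The reported fit takes no pairing, and the replicate block is the fit that takes one. Of 59 members, 39 counted as expressed by array medians and 38 by the siRetSat mean. Dim probe sets, those of the 20 members at or under the level, can hide changes.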
